A study of Homo sapiens with 12 samples.

Results

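Numbered ZNF genes encode zinc-finger proteins and carry the symbol ZNF followed by a number. They were selected from the deposited table of expression values by that symbol and by a mean level of at least 3 FPKM over the 12 libraries. FPKM is a level in which the reads of a gene are divided by the length of its transcript and by the size of the library. The table has 25365 names, of which 527 are numbered ZNF genes, and 167 of these met the rule. Among the other ZNF genes, 127 had a mean of 1 to under 3 FPKM, 193 were above 0 with a mean under 1 FPKM, and 40 were listed at 0 in all 12 libraries.

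A549 is an epithelial cell line from a human lung adenocarcinoma, and RNA was taken from 4 groups of 3 biological replicates. Wild-type A549 cells and PARP3-/- A549 cells each received either DMSO vehicle or 1 micromolar pyridostatin for 24 h. Pyridostatin is a small molecule that binds and stabilizes G quadruplexes (G4), 4-stranded structures of guanine-rich DNA, and PARP3 is a poly(ADP-ribose) polymerase that acts in the repair of DNA breaks. The comparisons ask whether transcription differed between the genotypes and with G4 stabilization. The PARP3-/- cells were made by transient Cas9 expression with guides that delete part of the gene, they were cloned by serial dilution, and according to the study's text they carry a rearrangement reporter, so that the effect of the genotype and that of a clone cannot be told apart. The PARP3 transcript itself was at 3.40 to 3.96 FPKM in wild-type vehicle libraries and 4.07 to 4.92 FPKM in vehicle libraries labelled PARP3-/-, and at 3.57 to 4.05 and 4.30 to 4.73 FPKM with pyridostatin. No decrease of PARP3 was thus seen where the labels say PARP3-/-, and since a gene-level value also counts exons outside the deletion it does not check these labels.

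Read depth is not part of an FPKM table, but the steps between low values placed the libraries at roughly 21.8 to 30.7 M reads. A median ZNF gene then rested on about 550 reads per library and the least covered one on about 122. Of 12 markers of A549 cells, 9 had a mean of at least 1 FPKM (the keratins KRT7, KRT8 and KRT18 were abundant), while the lung genes NKX2-1, SFTPB and SFTPC were at or near 0. Wild-type vehicle replicate 2 stood somewhat apart, with the lowest median correlation to the other libraries (0.959, against 0.962 to 0.964 in the other 11) and the lowest mean log2 level over all tested genes, and values without it are given below where they differ in call, split or order.

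Most ZNF proteins bind DNA through C2H2 zinc fingers, repeats in which a pair of cysteines and a pair of histidines hold a zinc ion. Many carry a KRAB domain, which recruits the scaffold protein TRIM28 (KAP1) and through it the histone methyltransferase SETDB1, HP1 proteins and the NuRD complex, and these proteins silence transposable elements and some genes. The family grew by repeated duplication, and large clusters of its genes lie on chromosome 19. Related members are similar in sequence, and how the authors' counting treated reads that fit several copies is not given in the sources used here, so levels of close paralogs are uncertain.

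Because pyridostatin acts on G4 DNA, the promoters of the ZNF genes were searched for letters that can fold into it, namely 4 runs of at least 3 G separated by loops of 1 to 7 bases, on both strands. RefSeq promoter windows (GRCh38.p14, 250 bases before to 50 bases after the annotated start) were found for 140 of the 167 genes, and 24 of them (17.1%) held such a motif, against 34.1% of the 8645 tested genes with a window. Among the 20 genes called with pyridostatin below, ZNF444, ZNF319, ZNF316 and ZNF641 had a motif. ZNF385A, ZNF703, ZNF710 and ZNF746, also among the 20, had no window and were not searched. The 250 bases before the start of 3 of them are printed here, with ZNF609, which was called in both genotypes and whose window held no match. Capitals mark the motif, written as runs of C where it lies on the opposite strand, and each sequence reads 5′ to 3′ on the strand of the gene. In ZNF641, a pair of matches is separated by a single base and the third lies next to the start. The windows lie at chr12:48350920-48351169 (minus strand) for ZNF641, chr7:6637068-6637317 (plus strand) for ZNF316, chr19:56141037-56141286 (plus strand) for ZNF444 and chr15:64460328-64460577 (plus strand) for ZNF609.
ZNF641: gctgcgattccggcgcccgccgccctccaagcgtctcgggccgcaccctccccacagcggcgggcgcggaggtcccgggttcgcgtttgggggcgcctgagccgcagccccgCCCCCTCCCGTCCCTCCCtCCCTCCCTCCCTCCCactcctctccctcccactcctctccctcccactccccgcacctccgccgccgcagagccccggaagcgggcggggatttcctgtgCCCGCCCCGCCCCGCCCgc
ZNF316: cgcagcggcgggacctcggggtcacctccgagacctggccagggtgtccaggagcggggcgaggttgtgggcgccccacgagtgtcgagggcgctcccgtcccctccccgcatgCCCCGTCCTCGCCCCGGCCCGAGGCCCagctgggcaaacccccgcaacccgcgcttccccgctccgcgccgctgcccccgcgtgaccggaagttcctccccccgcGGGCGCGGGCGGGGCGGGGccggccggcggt
ZNF444: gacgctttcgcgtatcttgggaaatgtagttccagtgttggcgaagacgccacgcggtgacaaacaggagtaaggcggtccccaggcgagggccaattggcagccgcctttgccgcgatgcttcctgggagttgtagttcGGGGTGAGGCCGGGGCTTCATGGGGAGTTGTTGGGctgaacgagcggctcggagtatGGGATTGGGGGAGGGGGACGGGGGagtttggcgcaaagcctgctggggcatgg
ZNF609: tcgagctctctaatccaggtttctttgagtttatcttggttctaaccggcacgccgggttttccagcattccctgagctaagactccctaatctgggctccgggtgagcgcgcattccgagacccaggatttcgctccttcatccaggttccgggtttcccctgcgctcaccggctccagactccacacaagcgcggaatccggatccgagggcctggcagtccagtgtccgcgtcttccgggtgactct
All 3 matches in the ZNF641 window lie on the strand opposite to the gene, both matches in ZNF444 lie on the strand of the gene, and ZNF316 has 1 on each strand. Matches were counted and capitalized without overlap. A further arrangement that joins marked runs with neighbouring ones, as before the opposite-strand match in ZNF316, is therefore not fully marked. GC content of the 250 bases was 78.4% in ZNF641, 80% in ZNF316, 62.4% in ZNF444 and 58.8% in ZNF609. A match describes the letters only and is no measurement of a folded structure.

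The 167 ZNF genes were mostly of low level. Their median mean was 5.86 FPKM, 129 lay between 3 and 10 FPKM, 32 between 10 and 30 FPKM, and 6 at 30 FPKM or above. ZNF207 (BuGZ), a microtubule-binding protein of the mitotic spindle and kinetochore, was the highest with a mean of 114.6 FPKM and made up 7.46% of the summed level. Its values ran from 110.4 to 119.7 FPKM, the smallest spread between replicates of the family (coefficient of variation within groups 1.10%). ZNF146, a protein that consists almost wholly of fingers, followed with a mean of 68.9 FPKM and a range of 61.0 to 72.9 FPKM. Next came ZNF655 with a mean of 43.7 FPKM, ZNF511 with 39.3 FPKM, ZNF664 with 39.0 FPKM and ZNF593, related to a yeast factor of ribosome export, with 37.7 FPKM. ZNF580 had a mean of 29.8 FPKM, and ZNF622, which matures the large ribosomal subunit, had 25.3 FPKM. Together these 8 genes made up 25.9% of the summed level, and the order among ZNF511, ZNF664 and ZNF593 does not exceed their spread, since their ranges over libraries overlap.

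**Figure D1:**
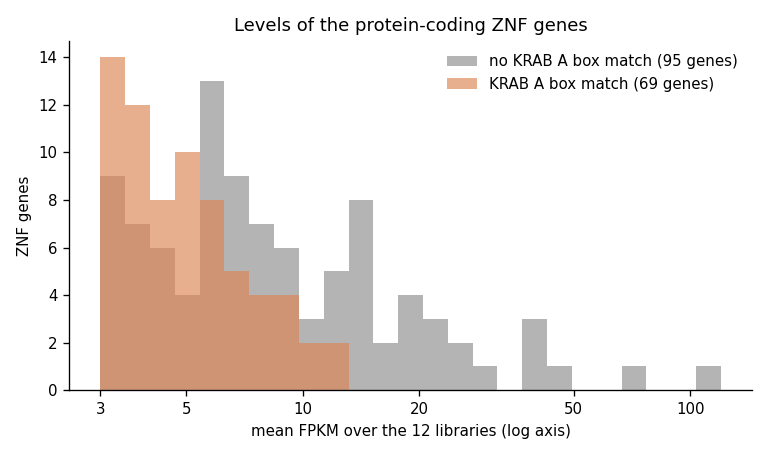
Histogram of the mean FPKM over the 12 libraries (x axis, log scale) for the 164 ZNF genes with a protein in GENCODE, as a count of genes (y axis) and split by a match to the KRAB A box. Genes with a match (69) have a median of 4.69 FPKM and those without (95) a median of 7.22 FPKM, and the 8 highest levels are all among genes without a match.

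The threshold of 3 FPKM cuts through a continuous range. Just above it were ZNF558 (3.01 FPKM), ZNF675 (3.04 FPKM) and ZNF268 (3.05 FPKM), and just below it ZNF75D (2.97 FPKM), ZNF783 (2.96 FPKM) and ZNF419 (2.95 FPKM). Within groups the coefficient of variation had a median of 7.07% over the 167 genes and reached 18.9% in ZNF248. Over all 12 libraries the highest value of a gene was a median of 1.35 times its lowest, and the ratio was under 1.5 in 135 genes and over 2 in only 3, namely ZNF185, ZNF703 and ZNF609.

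Of the 167 genes, 48 (28.7%) lie on chromosome 19, where 6.52% of all tested genes lie, and 20 lie on chromosome 16 and 16 on chromosome 7. In the GENCODE release 29 proteins of 164 genes, a C2H2 pattern was found in 159, with a median of 8 fingers and a maximum of 31 in ZNF142. The pattern was not matched in ZNF185, ZNF330, ZNF503, ZNF703 and ZNF839. It has set spacings and was searched in a single protein per gene, so that a finger of other spacing would be missed. A KRAB A box was matched in 69 of 164 proteins (42.1%), compared with 1.60% of all tested genes with a protein, and genes with the match had a median of 11 fingers, those without it 6. The other 3 genes, ZNF271, ZNF252P and ZNF767P, had no protein in that release. A KRAB domain that is absent from the searched protein or scores too low would be missed. ZNF79, counted as without a match, had a score of -3.32, just under the cut of 0.

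The summed level of the 167 genes was higher in every pyridostatin library than in every vehicle library. It was 1509, 1509.8 and 1511 FPKM in the wild-type vehicle libraries and 1505, 1519 and 1517 FPKM in the vehicle libraries labelled PARP3-/-. With pyridostatin it was 1555, 1569 and 1560.0 FPKM in wild-type cells and 1544, 1583 and 1571 FPKM in libraries labelled PARP3-/-. On the log2 scale, the mean over the ZNF genes minus the mean over all tested genes was -0.787 to -0.754 in the vehicle libraries and -0.740 to -0.709 in the pyridostatin libraries. The 2 treatments did not overlap in either measure, while the genotypes overlapped in the sums. In the median log2(FPKM + 1) over the ZNF genes, however, the treatments did overlap. It was 2.731 to 2.787 in the vehicle libraries and 2.767 to 2.845 in the pyridostatin libraries. In the log2 difference the genotypes overlapped with vehicle but not with pyridostatin, where wild-type cells were at -0.719 to -0.709 and libraries labelled PARP3-/- at -0.740 to -0.721. Wild-type vehicle replicate 2 lay inside the vehicle range of the sum and near the low end of the log2 difference (-0.784), below the other wild-type vehicle libraries (-0.754 in both). In bulk RNA, a change in the make-up of a culture and a change in RNA per cell cannot be told apart.

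**Figure D2:**
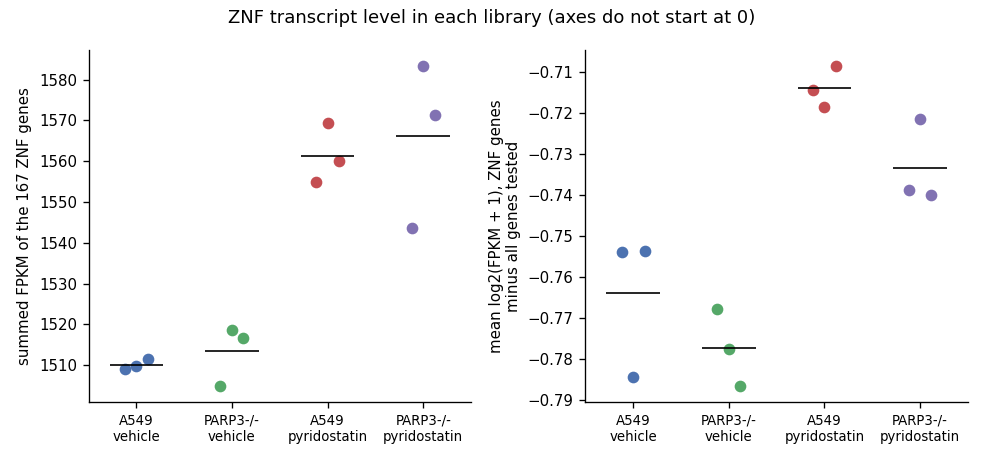
Left, summed FPKM of the 167 ZNF genes in each library (y axis) by group (x axis). Right, mean log2(FPKM + 1) of the ZNF genes minus that of all tested genes. Points are libraries, lines are the means of 3, and neither axis starts at 0. On the left, the 6 vehicle libraries lie at 1505 to 1519 FPKM and the 6 pyridostatin libraries at 1544 to 1583 FPKM.

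Each gene was then tested with limma on log2(FPKM + 1), together with all 11881 genes of mean level at least 1 FPKM, a scale that understates the fold changes of genes at low levels. A gene was called at an adjusted p (Benjamini-Hochberg over the 11881 genes) under 0.05, and all 167 ZNF genes were above the filter. Pyridostatin in wild-type cells gave 11 ZNF genes called higher and 0 called lower by limma (31 and 9 at an unadjusted p under 0.05), while 2.79% of all tested genes were called higher and 1.38% lower. Among libraries labelled PARP3-/-, 18 were called higher and 0 lower (28 and 8 unadjusted), against 3.05% of all tested genes higher and 2.52% lower. The share of ZNF genes called higher was thus 6.59% in wild-type cells and 10.8% in libraries labelled PARP3-/-. The changes were small, with log2 fold changes of the called genes from 0.13 to 0.62 over both comparisons. No ZNF gene passed an absolute log2 fold change of 1 with an adjusted p under 0.05, and across all tested genes 0.0505% did in wild-type cells and 0.0673% in libraries labelled PARP3-/-.

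The median log2 fold change over the 167 genes was 0.071 in wild-type cells and 0.033 in libraries labelled PARP3-/-, against 0.0030 and 0.0021 over all tested genes. The medians were 0.033 and 0.0076 after quantile normalization and 0.038 and 0.013 with a common median of all libraries. Positive values were found in 125 of 167 genes (74.9%) and 107 of 167 (64.1%), compared with 50.9% and 50.7% of all tested genes. These counts were 108 (64.7%) and 89 (53.3%) after quantile normalization and 112 (67.1%) and 91 (54.5%) with a common median. Genes of similar level leaned the same way, since 61.7% and 58.9% of the 3699 tested genes with a mean of 3 to 10 FPKM had positive values, and among them 118 were called higher and 25 lower in wild-type cells and 133 and 35 in libraries labelled PARP3-/-. The 129 ZNF genes in that range gave 8 called higher in wild-type cells and 14 in libraries labelled PARP3-/-. Their median log2 fold changes were 0.074 in wild-type cells and 0.028 in libraries labelled PARP3-/-. For all tested genes of that range the medians were 0.034 and 0.026, so that those in libraries labelled PARP3-/- were close.

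How many ZNF genes were called depended on the libraries and on the scaling. Using only the libraries of the wild-type comparison, limma called 0 of the 167 (29 at an unadjusted p under 0.05, and 0.547% of all tested genes were called), with the same fold changes. Without wild-type vehicle replicate 1 or 3 there were 6 and 5 calls, with 3.09% and 2.12% of all tested genes called against 4.17% with every library. Without wild-type pyridostatin replicate 1, 2 or 3 there were 2, 6 and 2 (1.498%, 3.74% and 1.995% of all tested genes). Without wild-type vehicle replicate 2 there were 13 (5.94% of all tested genes), and 3 of these were lower, namely ZNF180, ZNF367 and ZNF644. Newly called higher there were ZNF76 (log2 fold change 0.36, SE 0.085, adjusted p = 0.0408) and ZNF768 (0.27, SE 0.055, adjusted p = 0.0226). Single genes were also called lower without wild-type vehicle replicate 3 (ZNF48) and without pyridostatin replicate 2 (ZNF367). ZNF180, ZNF367, ZNF644, ZNF48, ZNF76 and ZNF768 were named after their values were seen. Among libraries labelled PARP3-/-, leaving out vehicle replicate 1, 2 or 3 gave 5, 4 and 5 calls, and leaving out pyridostatin replicate 1, 2 or 3 gave 11, 4 and 4, all of them higher. The share of all tested genes called there was 5.56% with every library, and it became 2.91%, 2.525% and 2.61% without a vehicle replicate and 3.998%, 2.40% and 2.14% without a pyridostatin replicate. The split into higher and lower also moved with scaling: quantile normalization gave 6 higher and 2 lower in wild-type cells and 12 higher and 2 lower in libraries labelled PARP3-/-, and a shift of all libraries to a common median gave 5 and 2, and 14 and 1.

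In all, 9 genes were called in both comparisons, whose group means share no libraries but whose variances come from 1 model of all 12: ZNF609, ZNF641, ZNF142, ZNF740, ZNF79, ZNF561, ZNF337, ZNF513 and ZNF710, the last 3 named after their values were seen. They are 81.8% of the 11 genes of the wild-type comparison and 50% of the 18 of the other, where for all tested genes the shares were 59.2% and 44.3%. Across the 167 genes the 2 sets of log2 fold changes had a Pearson r of 0.56 and a Spearman rho of 0.52, a description over genes, which are not independent replicates and share the libraries of each comparison (0.19 and 0.53 across all tested genes).

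ZNF609, a protein with a single detected finger that works with cohesin loading and the Integrator complex in neural precursors, was called in both genotypes. Its level was 12.6, 9.24 and 12.4 FPKM with vehicle and 17.9, 17.8 and 18.2 FPKM with pyridostatin in wild-type cells, and 12.3, 11.8 and 12.7 FPKM and 16.3, 17.5 and 19.2 FPKM in libraries labelled PARP3-/-. The treatments did not overlap in either genotype, and wild-type vehicle replicate 2 was the lowest of all 12. The log2 fold change was 0.62 (SE 0.096, adjusted p = 0.00550) in wild-type cells and 0.49 (SE 0.096, adjusted p = 0.0162) in libraries labelled PARP3-/-. In the latter the call was lost without vehicle replicate 1 or 2 or pyridostatin replicate 2 or 3 (adjusted p 0.00921 to 0.0780 over 14 alternatives, namely the 6 libraries left out in turn and 8 other settings). The wild-type change was the largest of the 167, but without vehicle replicate 2 it was 0.49 (SE 0.057, adjusted p = 0.00145), smaller in size than that of ZNF367, -0.53 (SE 0.12, adjusted p = 0.0330). The wild-type call held without any 1 library and was lost only when just the libraries of that comparison were fitted (adjusted p over the alternatives 0.00145 to 0.107).

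ZNF641, a KRAB-matched gene with 5 detected fingers, was higher both with pyridostatin and in the libraries labelled PARP3-/-. Wild-type libraries had 2.94, 2.86 and 3.01 FPKM with vehicle and 3.72, 3.77 and 3.95 FPKM with pyridostatin. Libraries labelled PARP3-/- had 3.90, 3.92 and 4.08 FPKM and 4.96, 4.61 and 4.43 FPKM. No pair of groups compared here overlapped, and wild-type cells with pyridostatin and vehicle libraries labelled PARP3-/- reached similar levels. Log2 fold changes with pyridostatin were 0.29 (SE 0.047, adjusted p = 0.00715) in wild-type cells and 0.19 (SE 0.047, adjusted p = 0.0420) in libraries labelled PARP3-/-. The wild-type call was lost only when just the libraries of that comparison were fitted, and the other was close to the threshold, held in only 2 of 14 alternatives and was lost without any 1 of the 6 libraries (adjusted p over the alternatives 0.0309 to 0.129). Its promoter is the first of those printed above.

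ZNF142, the member with the most fingers, had 3.41, 2.65 and 3.37 FPKM in wild-type vehicle libraries and 4.47, 4.14 and 4.58 FPKM with pyridostatin. In libraries labelled PARP3-/- it had 2.90, 2.98 and 2.86 FPKM and 3.65, 4.21 and 4.29 FPKM, again with no overlap between treatments. The log2 fold changes were 0.39 (SE 0.078, adjusted p = 0.0236) and 0.37 (SE 0.078, adjusted p = 0.0231). Leaving out wild-type pyridostatin replicate 1 or 3 ended the wild-type call, and leaving out any 1 vehicle library or pyridostatin replicate 2 or 3 ended the other (adjusted p over the alternatives 0.0209 to 0.165 and 0.0175 to 0.105).

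ZNF740 was at 7.39, 6.996 and 7.52 FPKM with vehicle and 8.49, 8.47 and 9.17 FPKM with pyridostatin in wild-type cells, and at 6.80, 7.09 and 7.38 FPKM and 8.50, 9.15 and 8.66 FPKM in libraries labelled PARP3-/-. Its log2 fold changes were 0.23 (SE 0.047, adjusted p = 0.0255) and 0.27 (SE 0.047, adjusted p = 0.00868), and the call in libraries labelled PARP3-/- held in 14 of 14 alternatives. The wild-type call held in 9 of 14, and was lost without vehicle replicate 1 or 3 or pyridostatin replicate 1 or 3 (adjusted p over the alternatives 0.0233 to 0.181).

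ZNF79 was at 2.95, 2.98 and 2.66 FPKM and 4.17, 3.51 and 4.03 FPKM in wild-type cells without and with pyridostatin, and at 2.88, 3.02 and 2.93 FPKM and 4.11, 3.33 and 4.04 FPKM in libraries labelled PARP3-/-, with log2 fold changes of 0.34 (SE 0.074, adjusted p = 0.0298) and 0.29 (SE 0.074, adjusted p = 0.0491). ZNF561, a KRAB-matched gene of chromosome 19, was at 3.45, 2.85 and 3.12 FPKM and 3.81, 4.09 and 3.995 FPKM in wild-type cells, and at 3.42, 3.08 and 3.07 FPKM and 4.29, 4.01 and 4.25 FPKM in libraries labelled PARP3-/-. Its log2 fold changes were 0.26 (SE 0.060, adjusted p = 0.0369) and 0.31 (SE 0.060, adjusted p = 0.0159). Neither gene overlapped between treatments, but both wild-type calls were close to the threshold: that of ZNF79 held in 6 of 14 alternatives and was lost without vehicle replicate 1 or 3 or pyridostatin replicate 1 or 3, and that of ZNF561 held in 5 of 14 and was lost without any 1 wild-type library but vehicle replicate 1 (adjusted p up to 0.142 and 0.202). In libraries labelled PARP3-/-, the call of ZNF79 held in 3 of 14 alternatives and was lost without any 1 library but pyridostatin replicate 2, and that of ZNF561 held in 10 of 14 and was lost without vehicle replicate 2 or 3 or pyridostatin replicate 1 or 3 (adjusted p over the alternatives 0.0248 to 0.180 and 0.0119 to 0.0694).

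The other 3 genes called in both comparisons changed by similar amounts. ZNF337, KRAB-matched, was at 6.63 to 7.58 FPKM with vehicle and 8.44 to 9.06 FPKM with pyridostatin in wild-type cells (log2 fold change 0.28, SE 0.065, adjusted p = 0.0394) and at 6.66 to 7.65 and 8.09 to 9.22 FPKM in libraries labelled PARP3-/- (log2 fold change 0.28, SE 0.065, adjusted p = 0.0344). ZNF513, a transcription factor needed in photoreceptors, was at 5.52 to 6.41 FPKM with vehicle and 7.04 to 7.76 FPKM with pyridostatin in wild-type cells (log2 fold change 0.26, SE 0.062, adjusted p = 0.0423) and at 5.79 to 6.03 and 6.95 to 8.07 FPKM in the others (log2 fold change 0.30, SE 0.062, adjusted p = 0.0210). ZNF710 was at 3.08 to 3.46 and 3.799 to 4.15 FPKM in wild-type cells (log2 fold change 0.23, SE 0.054, adjusted p = 0.0390) and at 3.69 to 3.76 and 4.36 to 4.99 FPKM in libraries labelled PARP3-/- (log2 fold change 0.26, SE 0.054, adjusted p = 0.0214). In wild-type cells the calls held in 5 of 14 (ZNF337), 5 of 14 (ZNF513) and 3 of 14 (ZNF710) alternatives and were lost without any 1 pyridostatin library or vehicle replicate 3, as well as without vehicle replicate 2 for ZNF337 and ZNF710 and vehicle replicate 1 for ZNF513. In libraries labelled PARP3-/- they held in 6 of 14, 8 of 14 and 9 of 14 alternatives and were lost without pyridostatin replicate 2 or vehicle replicate 2 or 3, as well as without vehicle replicate 1 for ZNF513 and ZNF710, pyridostatin replicate 1 for ZNF337 and ZNF513 and pyridostatin replicate 3 for ZNF710. Over the alternatives the adjusted p reached 0.157 and 0.124 for ZNF337, 0.210 and 0.0897 for ZNF513, and 0.198 and 0.0893 for ZNF710.

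**Figure D3:**
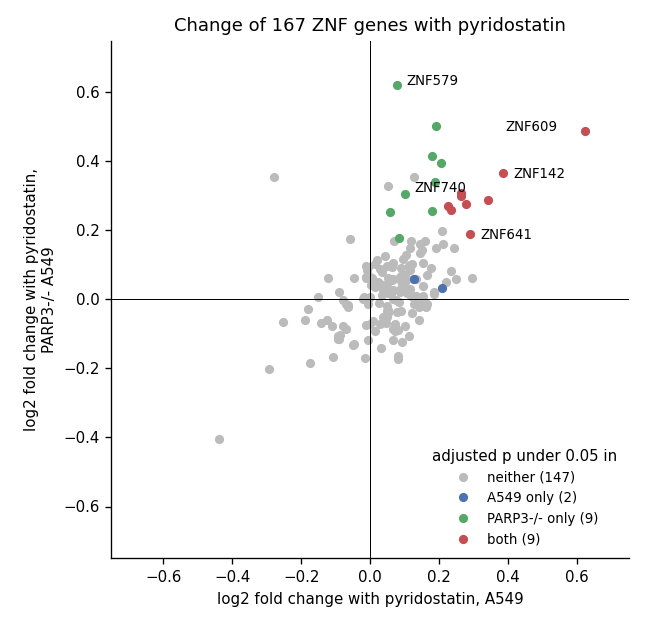
Log2 fold change with pyridostatin in wild-type A549 cells (x axis) and in libraries labelled PARP3-/- (y axis), 1 point for each of the 167 ZNF genes and coloured by the comparison in which the adjusted p was under 0.05. The 9 genes called in both lie in the upper right quadrant, as do the 2 called in wild-type cells alone and the 9 called in libraries labelled PARP3-/- alone.

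**Figure D4:**
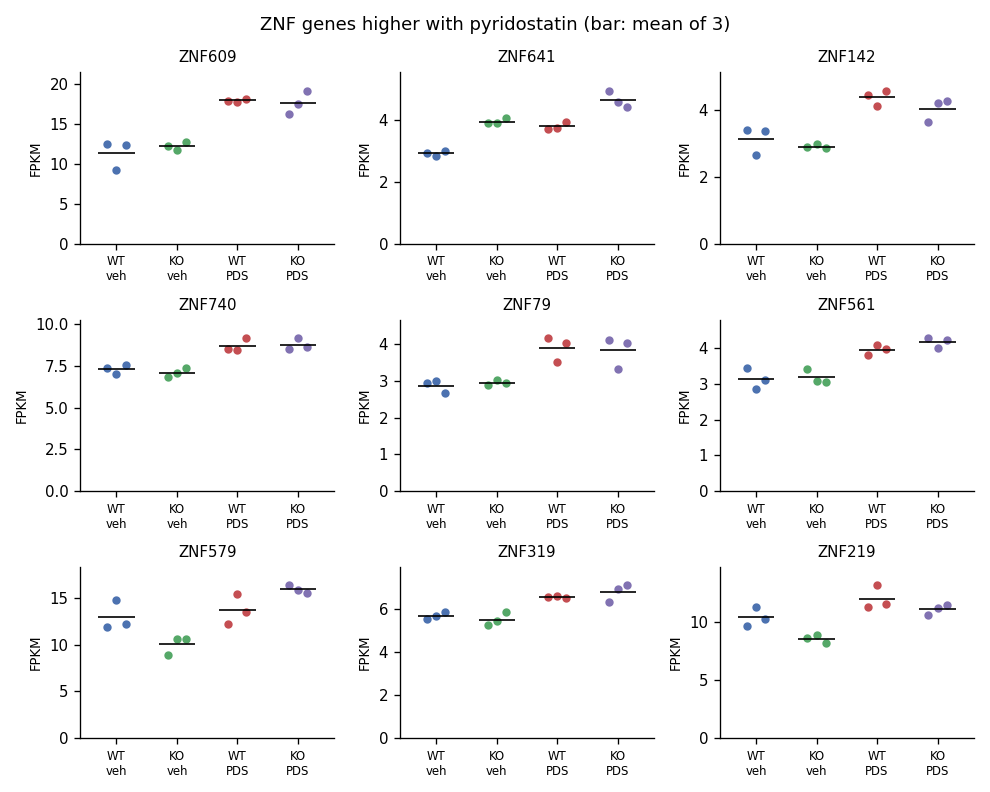
FPKM (y axis, from 0) of 9 ZNF genes in each of the 12 libraries, for wild-type (WT) libraries and those labelled PARP3-/- (KO) with vehicle (veh) or pyridostatin (PDS); points are libraries and lines the means of 3. ZNF609 rises from 9.24 to 12.6 FPKM with vehicle to 17.8 to 18.2 FPKM with pyridostatin in WT, and ZNF579 rises in KO from 8.94 to 10.6 FPKM to 15.5 to 16.4 FPKM.

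In wild-type cells alone, ZNF655 and ZNF131 were called. ZNF655, a Krüppel-like protein that binds the signalling protein VAV1, was at 41.4, 41.1 and 41.0 FPKM with vehicle and 45.5, 45.2 and 44.4 FPKM with pyridostatin, a narrow but complete separation with a log2 fold change of 0.13 (SE 0.030, adjusted p = 0.0400). In libraries labelled PARP3-/- the values of ZNF655 overlapped, with a log2 fold change of 0.060 (SE 0.030, adjusted p = 0.303). ZNF131, a BTB-domain zinc-finger protein, was at 10.6 to 12.4 FPKM with vehicle and 13.3 to 14.0 FPKM with pyridostatin (log2 fold change 0.21, SE 0.051, adjusted p = 0.0486), and its log2 fold change in libraries labelled PARP3-/- was 0.033 (SE 0.051, adjusted p = 0.782). It was named after its values were seen. The ZNF655 call held in 4 of 14 alternatives and the ZNF131 call in 5 of 14, and they were lost without any 1 wild-type library but vehicle replicate 2 and without vehicle replicate 1 or any 1 pyridostatin library, respectively (adjusted p over the alternatives 0.0212 to 0.198 and 0.0312 to 0.276).

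In libraries labelled PARP3-/- alone, 9 genes were called, led by ZNF579. Its level was 8.94, 10.6 and 10.6 FPKM with vehicle and 16.4, 15.9 and 15.5 FPKM with pyridostatin there, compared with 11.9, 14.8 and 12.2 FPKM and 12.2, 15.4 and 13.5 FPKM in wild-type cells. The vehicle libraries labelled PARP3-/- were thus the lowest group and did not overlap with any other. Against wild-type vehicle libraries their log2 fold change was -0.34 (SE 0.096, adjusted p = 0.0514). ZNF579 was called lower there with another pseudocount, after both scalings, with the replicate block and without wild-type vehicle replicate 1. The log2 fold change with pyridostatin was 0.62 (SE 0.096, adjusted p = 0.00439) in libraries labelled PARP3-/-, a call that held in 14 of 14 alternatives. In wild-type cells it was 0.076 (SE 0.096, adjusted p = 0.703).

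ZNF319 went from 5.24, 5.40 and 5.82 FPKM to 6.29, 6.88 and 7.08 FPKM (log2 fold change 0.26, SE 0.049, adjusted p = 0.0142), and in wild-type cells from 5.52, 5.64 and 5.83 FPKM to 6.55, 6.56 and 6.51 FPKM, where the groups also did not overlap but the adjusted p was 0.0721. ZNF219 was at 8.62, 8.85 and 8.21 FPKM with vehicle and 10.6, 11.2 and 11.5 FPKM with pyridostatin (log2 fold change 0.34, SE 0.065, adjusted p = 0.0145), against 9.69, 11.2 and 10.3 and 11.3, 13.2 and 11.5 FPKM in wild-type cells (log2 fold change 0.19, SE 0.065, adjusted p = 0.139). Both calls depend on single libraries: ZNF319 lost its call without vehicle replicate 1 or 2 or pyridostatin replicate 2 or 3, and ZNF219 without vehicle replicate 3 or pyridostatin replicate 2 or 3 of the libraries labelled PARP3-/- (adjusted p up to 0.0694 for each). The other 6, named after their values were seen, had log2 fold changes of 0.50 (ZNF703, a repressor of the NET family), 0.42 (ZNF385A, a p53 target that binds p53), 0.39 (ZNF213), 0.31 (ZNF444, a SCAN-domain factor), 0.25 (ZNF316) and 0.18 (ZNF746 or PARIS, a repressor of PPARGC1A), with adjusted p from 0.0209 to 0.0408. ZNF444 was at 13.0, 13.6 and 13.3 FPKM with vehicle and 15.8, 17.7 and 16.6 FPKM with pyridostatin, and ZNF316 at 3.75, 3.97 and 3.78 and 4.36, 5.13 and 4.80 FPKM. Neither overlapped there, and in wild-type cells their log2 fold changes were 0.10 (SE 0.066, adjusted p = 0.432) and 0.058 (SE 0.052, adjusted p = 0.586). Of the 14 alternatives, the calls held in 10 for ZNF213, 9 for ZNF444, 8 for ZNF316, 6 for ZNF703, 6 for ZNF385A and 5 for ZNF746, with adjusted p up to 0.0919, 0.0992, 0.0840, 0.158, 0.131 and 0.130. Each was lost without vehicle replicate 1 or pyridostatin replicate 2 or 3, all but ZNF213 also without vehicle replicate 2 or 3, and ZNF703 and ZNF746 also without pyridostatin replicate 1.

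At the low end, ZNF367 and ZNF180, named after their values were seen, lay below their vehicle libraries in both genotypes without passing the test. ZNF367 was at 7.60, 5.93 and 7.25 FPKM and 4.72, 5.77 and 4.10 FPKM in wild-type cells and at 7.24, 7.04 and 6.04 FPKM and 5.44, 4.40 and 4.80 FPKM in libraries labelled PARP3-/-, with log2 fold changes of -0.44 (SE 0.12, adjusted p = 0.0677) and -0.40 (SE 0.12, adjusted p = 0.0752). For ZNF180, which is KRAB-matched, they were -0.17 (SE 0.054, adjusted p = 0.101) and -0.18 (SE 0.054, adjusted p = 0.0769). Both were called lower in both genotypes after quantile normalization, and without wild-type vehicle replicate 2 both were called lower in wild-type cells.

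Calls with pyridostatin, all of them higher, were also counted by structure. Of all tested genes, 2.79% were called higher in wild-type cells and 3.05% in libraries labelled PARP3-/-. With a KRAB match, 3 of 69 genes (4.35%) were called in wild-type cells and 6 of 69 (8.70%) in libraries labelled PARP3-/-. Without it there were 8 of 95 (8.42%) and 12 of 95 (12.6%). Positive changes were found in 56 of 69 KRAB-matched genes in wild-type cells (median 0.080) and 40 of 69 in libraries labelled PARP3-/- (median 0.017), and in 66 of 95 of the others in each comparison (medians 0.065 and 0.055). On chromosome 19, 1 of 48 genes (2.08%) was called in wild-type cells and 3 of 48 (6.25%) in libraries labelled PARP3-/-. On other chromosomes 10 (8.40%) and 15 (12.6%) of 119 were called. Of the 24 genes with a G4 motif in the promoter window, 1 was called in wild-type cells and 4 in libraries labelled PARP3-/-, and of the 116 without a motif 9 and 10. Among all tested genes with a window, 3.63% of those with a motif and 2.70% of those without were called higher in wild-type cells, and 4.48% and 2.47% in libraries labelled PARP3-/-. Whether these shares differ was not tested.

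The change in libraries labelled PARP3-/- moved with the GC content of the transcripts. Of the 84 ZNF genes at or above the median GC content of the family (49.1%), 15 (17.9%) were called higher there and 65 (77.4%) had a positive change, and of the 83 below it, 3 (3.61%) were called and 42 (50.6%) were positive. All tested genes leaned the same way, with 4.36% called higher and 55.6% positive at or above that GC content, and 1.77% and 46.3% below it. In wild-type cells the corresponding counts were 6 and 61, and 5 and 64. Spearman's rho between GC content and log2 fold change across the 167 genes was 0.41 in libraries labelled PARP3-/- and -0.014 in wild-type cells, and across all tested genes with a transcript 0.14 and -0.019. Across all tested genes, rho with transcript length was 0.35 in wild-type cells and 0.24 in libraries labelled PARP3-/- (0.25 and 0.026 across the ZNF genes). In the genotype comparisons, rho with GC content across the ZNF genes was -0.23 with vehicle and 0.33 with pyridostatin. Across all tested genes these were -0.015 and 0.13. KRAB-matched genes had a lower median GC content (46.2%) than those without a match (53.5%). The part of GC content and length in these results, and in those by KRAB match, was not tested.

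Between the genotypes, few ZNF genes were called and the directions were mixed. With vehicle, 4 were called higher and 1 lower in the samples labelled PARP3-/- (13 and 11 unadjusted), against 6.4% of all tested genes higher and 3.01% lower. With pyridostatin, 3 were called higher and 3 lower (10 and 11 unadjusted), against 7.07% and 3.85%. None passed an absolute log2 fold change of 1, which 0.362% and 0.396% of all tested genes did. The median log2 fold change over the 167 genes was 0.015 with vehicle and -0.014 with pyridostatin, against 0.015 and 0.0083 over all tested genes, and the first of these turned negative (-0.031, -0.025 and -0.016) after quantile normalization, after a shift to a common median and without wild-type vehicle replicate 2. These scalings also changed the split of calls, to 3 higher and 4 lower (quantile) or 3 and 3 (common median) with vehicle, and to 3 and 6 or 3 and 5 with pyridostatin. ZNF579 and ZNF385A, described above, were among the lower ones with vehicle after both scalings. Leaving out any 1 vehicle library labelled PARP3-/- gave 3 calls in the vehicle comparison, with 6.28% to 7.19% of all tested genes called against 9.41% with every library. Without wild-type vehicle replicate 2 there were 9 calls (13.8% of all tested genes), 4 higher and 5 lower. The lower ones were ZNF260, ZNF281, ZNF507, ZNF664 and ZNF780A, and ZNF428 was newly called higher (log2 fold change 0.25, SE 0.044, adjusted p = 0.00511). Of these genes, all but ZNF664 were named after their values were seen.

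ZNF185, a LIM-domain protein of the actin cytoskeleton encoded on chromosome X, showed the largest genotype difference. It was at 5.18, 5.57 and 5.55 FPKM in wild-type vehicle libraries and 10.96, 10.7 and 10.7 FPKM in vehicle libraries labelled PARP3-/-, and at 4.90, 5.09 and 5.11 and 9.83, 9.86 and 9.92 FPKM with pyridostatin. The highest wild-type library was at 5.57 FPKM and the lowest of the other 6 at 9.83 FPKM. The log2 fold changes were 0.87 (SE 0.036, adjusted p = 1.45e-07) with vehicle and 0.85 (SE 0.036, adjusted p = 1.79e-07) with pyridostatin, and they held in 14 of 14 alternatives in each comparison. Its pyridostatin libraries lay below the vehicle libraries within each genotype, with log2 fold changes of -0.092 (SE 0.036, adjusted p = 0.191) and -0.12 (SE 0.036, adjusted p = 0.0991), which did not pass the test. ZNF185 is 1 of the 5 members without a finger pattern.

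ZNF488, a transcription factor of the oligodendrocyte lineage, was at 7.07, 7.08 and 7.13 FPKM in wild-type vehicle libraries and 10.96, 10.3 and 12.3 FPKM in vehicle libraries labelled PARP3-/-, and at 7.94, 7.50 and 7.73 and 10.7, 11.6 and 11.8 FPKM with pyridostatin. Its log2 fold changes were 0.59 (SE 0.059, adjusted p = 8.52e-05) and 0.50 (SE 0.059, adjusted p = 2.94e-04), and no library of one genotype reached the range of the other. ZNF641, described above, differed by 0.34 (SE 0.047, adjusted p = 0.00103) with vehicle and 0.23 (SE 0.047, adjusted p = 0.00824) with pyridostatin. Both genes kept their calls in 14 of 14 alternatives of each comparison. ZNF185, ZNF488 and ZNF641 were the 3 genes called in both genotype comparisons, again with variances from 1 model, that is 60% of the 5 and 50% of the 6.

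ZNF211 and ZNF219 were called with vehicle only. ZNF211, a KRAB-matched gene of chromosome 19, was at 3.34, 2.89 and 3.43 FPKM in wild-type libraries and 3.99, 3.86 and 4.02 FPKM in those labelled PARP3-/- (log2 fold change 0.23, SE 0.064, adjusted p = 0.0459), a call that held in only 2 of 14 alternatives and was lost without any 1 of the 6 libraries (adjusted p over the alternatives 0.0378 to 0.131). ZNF219 was lower in libraries labelled PARP3-/-, with a log2 fold change of -0.25 (SE 0.065, adjusted p = 0.0336) and the values given above, and it lost its call without wild-type vehicle replicate 2 or 3 or any 1 of the 3 others (adjusted p over the alternatives 0.0147 to 0.119).

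With pyridostatin only, ZNF558, ZNF480 and ZNF7 were lower in libraries labelled PARP3-/-, and all 3 have a KRAB match. ZNF558 was at 3.33, 3.38 and 3.52 FPKM in wild-type libraries and 2.77, 2.62 and 2.42 FPKM in those labelled PARP3-/- (log2 fold change -0.29, SE 0.049, adjusted p = 0.00325), and it kept the call in 14 of 14 alternatives. With vehicle it was at 3.22, 3.25 and 3.16 and 2.91, 2.68 and 2.87 FPKM (log2 fold change -0.14, SE 0.049, adjusted p = 0.118). ZNF480 was at 8.77, 8.45 and 9.13 and 7.61, 7.41 and 7.53 FPKM (log2 fold change -0.20, SE 0.047, adjusted p = 0.0193) and lost the call without wild-type replicate 1 or 3 or replicate 2 or 3 of the others (adjusted p over the alternatives 0.00599 to 0.0872). ZNF7 was at 11.9, 12.02 and 13.0 and 10.9, 10.6 and 10.99 FPKM (log2 fold change -0.17, SE 0.043, adjusted p = 0.0317), and its call was lost without wild-type replicate 3 or any 1 of the 3 libraries labelled PARP3-/- (adjusted p over the alternatives 0.0285 to 0.127).

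**Figure D5:**
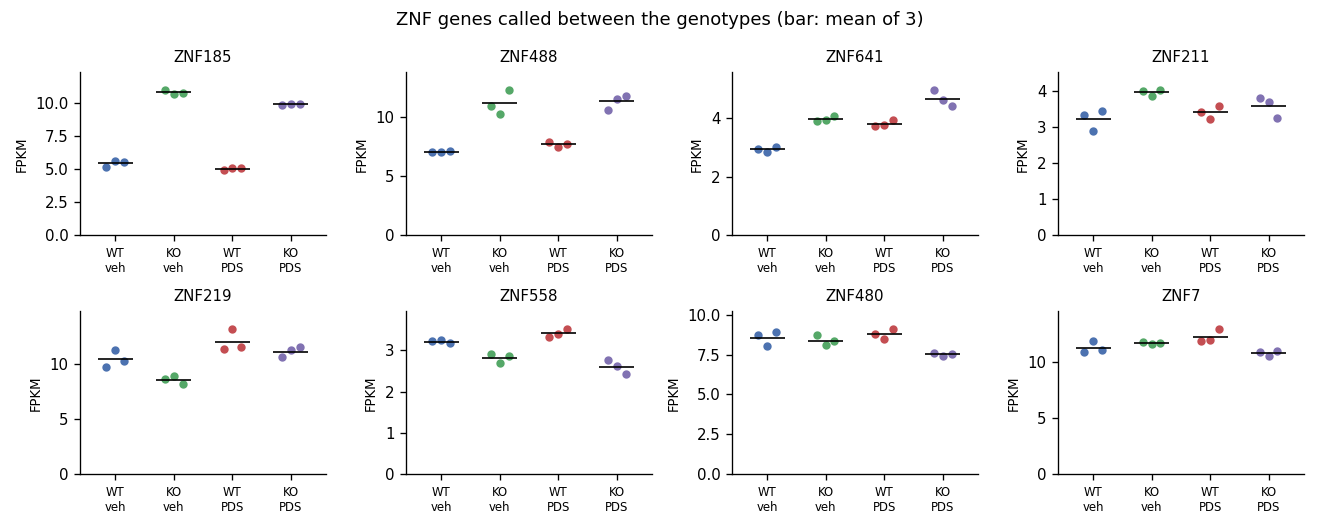
FPKM (y axis, from 0) of the 8 ZNF genes called between the genotypes in each of the 12 libraries, with groups and symbols as in the plot of the pyridostatin genes. ZNF185 lies at 4.90 to 5.57 FPKM in all 6 WT libraries and at 9.83 to 10.96 FPKM in all 6 KO libraries.

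Some marker genes also differed between the genotypes. Of 8 markers of blood cells, endothelium and fibroblasts, 2 had a mean of at least 1 FPKM, CD14 (4.29 FPKM) and COL1A1 (1.08 FPKM), and both were called higher in libraries labelled PARP3-/- in both treatments. CD3E was listed at 0 in all libraries, and PTPRC, PECAM1, VWF, COL3A1 and PDGFRB were near 0. The summed level of the 8, most of it CD14, was 4.07 to 5.32 FPKM in wild-type vehicle libraries and 6.17 to 7.65 FPKM in vehicle libraries labelled PARP3-/-, and 3.75 to 4.24 and 5.77 to 6.38 FPKM with pyridostatin. Of the 9 A549 markers with a mean of at least 1 FPKM, 6 were called between the genotypes in both treatments. With vehicle, KRT19 had a log2 fold change of 0.85, and EPCAM of -0.53 and CDH1 of -0.42. The enzymes AKR1B10, AKR1C1 and ALDH1A1 had -0.40, -0.38 and -0.30. KRT7, KRT8 and KRT18 were called in neither treatment. The part of this in the ZNF results was not tested.

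Whether the response of a ZNF gene to pyridostatin differed between the genotypes was tested by the interaction term. With limma 0 of the 167 genes and 0% of all tested genes had an adjusted p under 0.05, while 11 ZNF genes (6.59%) and 4.39% of all tested genes had an unadjusted p under 0.05. The smallest p belonged to ZNF579, ZNF580 and ZNF7, with differences in log2 fold change (libraries labelled PARP3-/- minus wild-type) of 0.54 (SE 0.14, adjusted p = 0.999), 0.63 (SE 0.17, adjusted p = 0.999) and -0.22 (SE 0.061, adjusted p = 0.999). Over the alternatives their adjusted p ranged from 0.365 to 1 for ZNF579 and ZNF580 and from 0.487 to 1 for ZNF7. ZNF580 was at 28.5, 37.4 and 31.6 FPKM with vehicle and 24.0, 31.1 and 24.8 FPKM with pyridostatin in wild-type cells and at 23.4, 27.2 and 28.3 and 33.8, 31.4 and 36.4 FPKM in libraries labelled PARP3-/-, where the groups did not overlap. Calls made in one genotype and not in the other are therefore not shown to differ between them. The median interaction over the 167 genes was -0.020, against -0.0073 over all tested genes.

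Among related genes, the other C2H2 families by symbol (ZBTB, ZSCAN, ZKSCAN, ZFP and KLF, 45 genes with a mean of 3 FPKM or more) gave 3 called higher with pyridostatin in wild-type cells and 6 in libraries labelled PARP3-/-, and 0 called lower in either, that is 6.67% and 13.3% higher against 2.79% and 3.05% of all tested genes (13 higher and 2 lower, and 7 and 1, at an unadjusted p under 0.05). Their median log2 fold changes were 0.098 and 0.040. Of 21 genes of the KRAB corepressor machinery, 20 were tested and EHMT2 was listed at 0 in all libraries. Such values do not tell a gene without transcript from one without assigned reads, which also holds for the ZNF genes listed at 0. With pyridostatin, CBX3 (HP1 gamma) was called lower, with a log2 fold change of -0.20 (SE 0.031, adjusted p = 0.00632) in wild-type cells and -0.16 (SE 0.031, adjusted p = 0.0136) in libraries labelled PARP3-/-, and CHD3, a NuRD subunit, was called higher, with 0.18 (SE 0.041, adjusted p = 0.0373) and 0.18 (SE 0.041, adjusted p = 0.0306). Between the genotypes, DNMT3B, a DNA methyltransferase, was called lower in libraries labelled PARP3-/-, with -0.37 (SE 0.068, adjusted p = 0.00568) with vehicle and -0.33 (SE 0.068, adjusted p = 0.0103) with pyridostatin, and HDAC2, a histone deacetylase, was called lower with pyridostatin, with -0.11 (SE 0.033, adjusted p = 0.0493). TRIM28, at a mean of 237 FPKM, passed the test in none of the 4 comparisons (adjusted p 0.509 to 0.874).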

How the data were processed

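Libraries of 12 A549 samples were made with a stranded mRNA kit and read as single ends of 75 bases. The authors deposited FPKM values per gene, made with STAR 2.5 and Cufflinks. The submitters' processing notes also name bcl2fastq 2.16 and the builds hg19 and mm9. How Cufflinks was set is not given in the sources used here. No counts were used, so that depth was only estimated from the steps between low values.

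The log2(FPKM + 1) values of the 11881 genes whose mean reached 1 FPKM were fitted with limma 3.58.1 (R 4.3.3) in 1 model of the 4 groups, with trended variances, and p-values were adjusted by the Benjamini-Hochberg method over all of them. The fit was tested on simulated data. The genes named were the 8 highest, up to 6 called genes per direction and comparison with the smallest p, any past an absolute log2 fold change of 1, those with the 3 smallest interaction p and the 3 on each side of the threshold of 3 FPKM. The members, lists and rules were chosen with earlier results of these data known. Alternatives were another pseudocount, other filters, 2 scalings, an untrended fit, the replicate block, only the libraries of a comparison and each library left out.

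Transcripts and proteins came from GENCODE release 29 by symbol. A KRAB match is a positive score over 38 residues against a matrix built from 238 seed matches, and a finger is C, 2 to 4 residues, C, 12 residues, H, 3 to 5 residues, H. The study's text calls the replicates biological, while the sample labels only number them. The p-values measure the spread between these samples.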

Additional observations from a re-analysis of the deposited data

How the results depend on the processing

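The 40 calls of ZNF genes named above were recomputed under the alternatives, and 354 of 560 values stayed past the threshold, 206 did not and 0 changed direction. With pyridostatin in wild-type cells, the 11 calls became 5 with no filter on low values, 7 with a common median and 0 with only the libraries of the comparison. The share of all tested genes called was 2.46%, 4.55% and 0.547% in these settings, against 4.17% in the main fit. A higher member threshold, a mean of at least 10 FPKM, left 38 members. Of these, 3 (7.89%) were called with pyridostatin in wild-type cells and 4 (10.5%) in libraries labelled PARP3-/-. In each genotype comparison 1 of the 38 (2.63%) was called. Medians of the log2 fold change with pyridostatin in wild-type cells were 0.0326 after quantile normalization, 0.0379 with a common median and 0.0515 at the higher member threshold, and 0.0076, 0.0129 and 0.0465 in libraries labelled PARP3-/-. Between the genotypes they were -0.0309, -0.0247 and -0.0176 with vehicle, and -0.0441 and -0.0416 after the 2 scalings with pyridostatin. The median interaction was -0.0395 among members with a mean of at least 1 FPKM and 0.0044 among those of at least 10 FPKM. Leaving out 1 library gave 3 to 9 calls (medians -0.016 to 0.0271) between the genotypes with vehicle and 4 to 8 (-0.0215 to -0.0029) with pyridostatin. For pyridostatin it gave 2 to 13 (0.0478 to 0.0777) in wild-type cells and 4 to 11 (0.0174 to 0.0401) in libraries labelled PARP3-/-, and for the interaction 0 (-0.0391 to -0.0064). Correlations between the deviations of same-numbered replicates were low but not all near 0 (-0.12 to 0.216, over 0.1 in 2 of 12 pairs). With the replicate block there were 5 and 7 calls between the genotypes, 8 and 16 with pyridostatin and 0 for the interaction. Causes were not tested. Members under 5 FPKM, 66 in number, rested on a median of about 349 reads per library, which limits what small differences can be seen.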
